A study of Mus musculus with 12 samples.

Results

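Creatine cycling comprises the enzymes and the transporter that make creatine, bring it into the cell, charge it to phosphocreatine and discharge it again. The genes described here are those listed under 7 symbols, Gatm, Gamt, Slc6a8, Ckb, Ckmt1, Ckmt2 and Alpl, and they were found by gene symbol in the authors' comparison tables for inguinal white fat (iWAT) and brown fat (BAT). All 7 were listed among the 16738 genes of the white fat table, and 5 among the 15363 genes of the brown fat table, which lists neither Gatm nor Ckmt1. The series holds 12 RNA sequencing libraries of inguinal white fat from C57BL/6 mice, in 4 groups of 3: WT and KO mice of each sex. KO stands for Adipo-NDUFS4 KO, a loss of NDUFS4, an accessory subunit of respiratory complex I, in adipocytes. Every group was on HFD, a high-fat diet, and was kept at room temperature. The sources used here give no driver of the deletion, no age and no number of animals behind a library, so p-values measure the spread between libraries, which may be technical in part. The labels list white fat libraries only, and the brown fat table is read as a comparison whose groups are not described here.

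Creatine is made in steps: GATM joins arginine and glycine to guanidinoacetate, and GAMT methylates that product to creatine. SLC6A8 carries creatine across the plasma membrane. Creatine kinases move a phosphate between ATP and creatine, CKB mainly in the cytosol and CKMT1 and CKMT2 in the space between the mitochondrial membranes. In thermogenic fat, phosphocreatine is also hydrolysed without regaining the ATP, a futile cycle for which CKB and the phosphatase encoded by Alpl are known, and which spends energy beside the uncoupling protein UCP1.

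The upstream sequences of the 3 kinase genes among the members are shown. Ckb was the member that passed the test, and Ckmt1 and Ckmt2 are the mitochondrial kinases. RefSeq promoter windows were matched by symbol for 6 of the 7 members, in build GRCm38.p6, and the 250 bases before the start site are given 5′ to 3′ on the gene's strand. Capitals mark matches on either strand to any of the motifs searched. These were the nuclear receptor half-site AAGGTCA, the core of the cAMP response element, TGACG, and the TATA box, spelled TATAAA. The others were the GC box, spelled GGGCGG, the CCAAT box, and the E-box bound by MyoD, spelled CAGCTG. The windows are chr12:111672339-111672588 on the minus strand for Ckb, chr13:91876886-91877135 on the minus strand for Ckmt2, and chr2:121357526-121357775 on the plus strand for the first of the listed starts of Ckmt1.
Ckb: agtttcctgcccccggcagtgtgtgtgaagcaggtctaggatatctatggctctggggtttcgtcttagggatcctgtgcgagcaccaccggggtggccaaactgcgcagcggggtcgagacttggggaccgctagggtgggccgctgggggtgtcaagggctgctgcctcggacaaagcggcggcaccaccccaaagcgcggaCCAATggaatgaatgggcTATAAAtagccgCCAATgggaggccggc
Ckmt2: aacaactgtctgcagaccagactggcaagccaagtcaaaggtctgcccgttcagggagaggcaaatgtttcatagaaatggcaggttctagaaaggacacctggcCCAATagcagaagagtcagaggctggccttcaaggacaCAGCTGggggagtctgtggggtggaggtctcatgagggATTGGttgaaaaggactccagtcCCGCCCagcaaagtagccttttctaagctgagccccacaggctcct
Ckmt1: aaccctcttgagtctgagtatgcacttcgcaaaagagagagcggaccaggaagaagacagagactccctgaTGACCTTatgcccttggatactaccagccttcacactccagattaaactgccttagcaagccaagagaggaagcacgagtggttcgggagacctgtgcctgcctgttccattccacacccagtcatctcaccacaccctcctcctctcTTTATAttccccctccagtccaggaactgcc
The Ckb window holds TATAAA from 28 to 23 bases before the start, with CCAAT from 46 to 42 and from 16 to 12 bases before it. Over all 32851 windows of the same length, 12.4% hold TATAAA and 33.8% hold CCAAT. The Ckmt2 window holds CAGCTG (found in 13% of all windows), GGGCGG on the opposite strand (32.7%) and a pair of CCAAT matches. The Ckmt1 window holds AAGGTCA on the opposite strand from 179 to 173 bases before the start (4.08% of all windows) and TATAAA on the opposite strand from 31 to 26 bases before it. TGACG, found in 17.8% of all windows, was not among the letters of these 3. These matches describe the letters of the windows and are not measured binding.

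The value reported for each gene is the interaction of genotype and sex: how far the log2 effect of the knockout in females exceeds that in males. A value above 0 arises where KO over WT is higher in females than in males, whichever group moved. The direction, females over males, is taken from how the tables are named. The effect within each sex, the values of single libraries and their depth were not analysed here, because no label names the columns that hold library values. Errors are standard errors derived from the authors' fitted value and its t-statistic, and a gene was called where the adjusted p from limma was under 0.05. The targeted gene, Ndufs4, had an interaction of 0.89 ± 0.38 (adjusted p = 0.169) in the authors' deposited white fat table and -0.099 ± 0.14 (adjusted p = 0.946) in that for brown fat, which does not check the genotype labels. Adipocyte markers were well represented, with a mean log2 expression over the libraries of 12.49 for Fabp4 in white fat and 12.02 in brown fat in the authors' deposited tables, and Ucp1, which defines brown adipocytes, stood at 12.54 in brown fat.

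How did the sex difference in the knockout effect fall on creatine cycling genes in white fat? All 7 interactions were above 0, where 55.9% of all genes were, and 6 of 7 were above the median of the table, the exception being Gatm. Ckb, the cytosolic kinase, was the only member that passed the adjusted p, so 1 of 7 members was called beside 4.75% of all genes. Its knockout effect was higher in females than in males by 1.53 on the log2 scale in the authors' deposited white fat table. At an unadjusted p of 0.05 the count was again 1 of 7, beside 24.5% of all genes. The median of the members was 1.53 against 0.13 over all genes, and 5 of 7 exceeded 1, as did 17.3% of all genes.

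**Figure D1:**
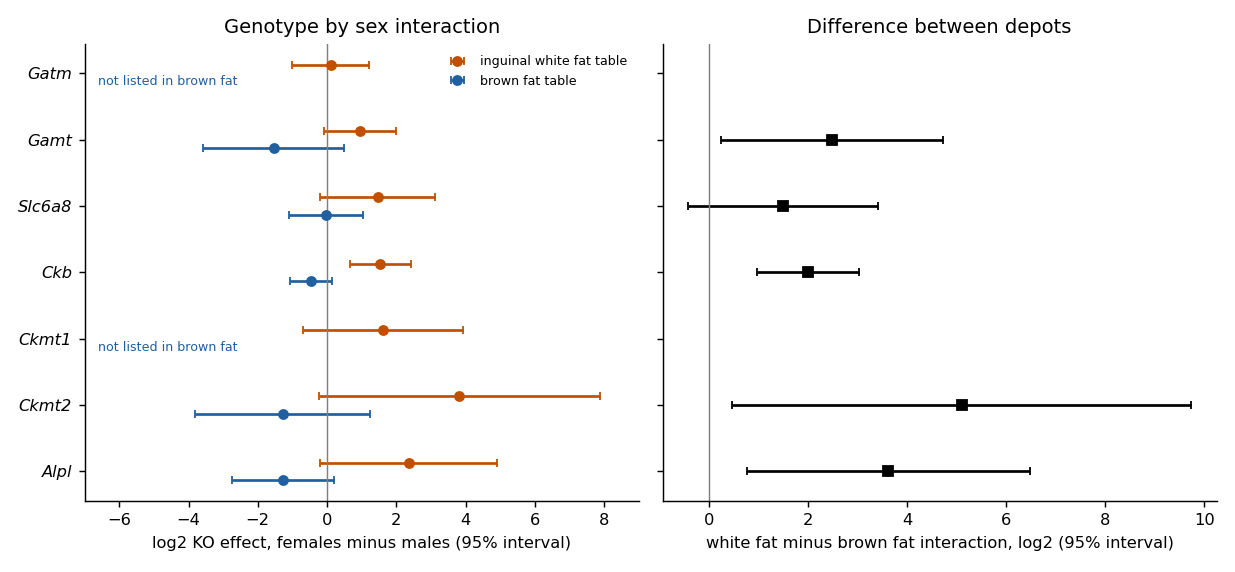
Interaction of genotype and sex for each gene, on the left as the log2 knockout effect in females less that in males with 95% intervals (orange, white fat; blue, brown fat), and on the right the white fat value less the brown fat value with its 95% interval. The interval of Ckb in white fat, 0.65 to 2.41, lies above 0, while those of the other 6 genes there and of all 5 genes in brown fat include 0.

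The synthesis genes differed in size. Gatm (chromosome 2, 122424948 to 122441784, GRCm39), which makes guanidinoacetate, was at 0.11 ± 0.52 in the authors' deposited white fat table (95% interval -1.01 to 1.22, adjusted p = 0.919). This was close to the middle of the table, since 51.2% of all genes had a higher interaction. Gamt (chromosome 10, 80093985 to 80096846), which completes the synthesis, was at 0.95 ± 0.48 in the authors' deposited white fat table (interval -0.092 to 1.99, adjusted p = 0.242), with 18.4% of genes higher. Whether Gamt and Gatm differed from each other was not tested.

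Slc6a8 (chromosome X, 72716756 to 72726108), the creatine transporter, was at 1.47 ± 0.77 in the authors' deposited white fat table (interval -0.20 to 3.13, adjusted p = 0.258). Its estimate was of about the size of that of Ckb, but its error was larger, and it did not pass.

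Among the kinases, Ckb (ENSMUSG00000001270.10, chromosome 12, 111635795 to 111638772 on the minus strand) was at 1.53 ± 0.41 in the authors' deposited white fat table (interval 0.65 to 2.41, adjusted p = 0.0496). As a ratio, KO over WT in females was 2.89 times KO over WT in males, with an interval of 1.57 to 5.33. Neither sex's own KO over WT is given by this value. The call was close to the threshold: Ckb ranked 778 by p among 795 called genes. Relative to the median interaction of the table it was at 1.40 with an adjusted p of 0.0602, and the call was lost. On that scale the called genes split into 108 above 0 and 852 below, against 177 and 618 as deposited. Ckmt1 (chromosome 2, 121188195 to 121194218), the ubiquitous mitochondrial kinase, was at 1.61 ± 1.07 in the authors' deposited white fat table (interval -0.70 to 3.92, adjusted p = 0.369). Ckmt2 (chromosome 13, 92001506 to 92025004), the mitochondrial kinase of muscle and heart, had the highest estimate of the 7 in the authors' deposited white fat table, 3.82 ± 1.88 (interval -0.23 to 7.88, adjusted p = 0.227), and 0.574% of all genes were higher. The estimates of Ckmt1 and Ckmt2 thus exceeded that of Ckb, but their intervals included 0. Mean log2 expression in the authors' deposited white fat table was 0.18 for Ckmt1 and -0.25 for Ckmt2, so both estimates rest on values near the low end of the table. Ckm (chromosome 7, 19138701 to 19156766), the cytosolic kinase of skeletal muscle and not a member, was at 3.69 ± 2.91 in the authors' deposited white fat table (adjusted p = 0.450).

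Alpl (chromosome 4, 137469044 to 137523695), the tissue-nonspecific alkaline phosphatase, was at 2.35 ± 1.18 in the authors' deposited white fat table (interval -0.19 to 4.90, adjusted p = 0.235), with 3.12% of genes higher. None of the 7 genes overlapped another gene listed in either table, by the coordinates the tables give.

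**Figure D2:**
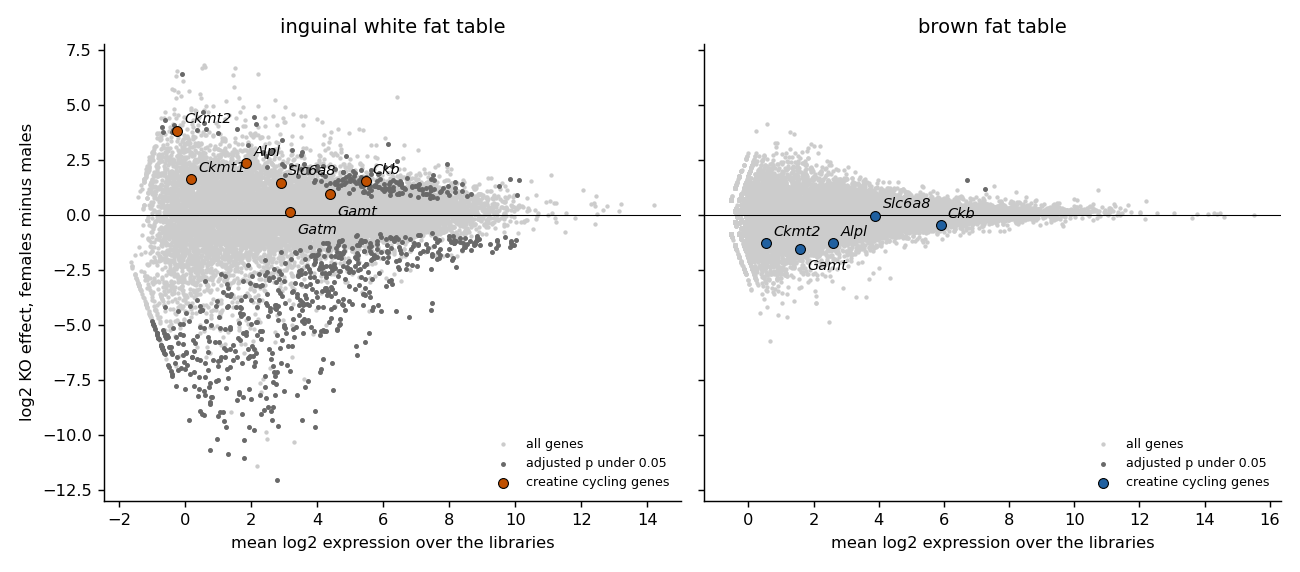
Log2 interaction of every gene against its mean log2 expression over the libraries, for the white fat table (left) and the brown fat table (right), with genes past an adjusted p of 0.05 in dark grey and the creatine cycling genes as labelled, filled points. The members lie above 0 on the left and below 0 on the right, and the dark points number 795 on the left and 2 on the right.

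In brown fat the 5 listed members were all below 0, where 49% of all genes were, and none passed the adjusted p from limma (0.013% of all genes did, 2 of 15363). None of them had an unadjusted p under 0.05 either, beside 6.51% of all genes. Their median was -1.27, against 0.012 over all genes. Mean log2 expression in brown fat was 0.55 for Ckmt2, 1.58 for Gamt, 2.60 for Alpl, 3.89 for Slc6a8 and 5.89 for Ckb. The lowest estimates belonged to Ckmt2, Gamt and Alpl, the least expressed members, but the estimates did not follow the order of expression. Genes within 0.5 log2 units of the same mean expression had median interactions of -0.19, -0.16, -0.049, -0.010 and 0.050, in that order. Gamt was at -1.54 ± 1.0 (interval -3.57 to 0.50, adjusted p = 0.831) in the authors' deposited brown fat table. Slc6a8 was at -0.032 ± 0.53 (interval -1.10 to 1.03, adjusted p = 0.993) in the authors' deposited brown fat table, the member closest to 0. Ckb had the narrowest interval of the 5, with -0.47 ± 0.30 (interval -1.07 to 0.14, adjusted p = 0.828) in the authors' deposited brown fat table. That interval bounds a sex difference above 0 at 0.14 and one below 0 at -1.07 on the log2 scale. Ckmt2, at -1.28 ± 1.24 (interval -3.80 to 1.24, adjusted p = 0.908), and Alpl, at -1.27 ± 0.72 (interval -2.73 to 0.20, adjusted p = 0.801), had like estimates in the authors' deposited brown fat table.

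The white fat and brown fat interactions were then compared gene by gene over the 14502 genes in both tables, taking the tables as independent. The labels do not say whether both depots came from the same mice, so these p-values are approximate. All 5 shared members were higher in white fat, beside 58.4% of all genes. Of these, 4 of 5 had an unadjusted p under 0.05 in this test, beside 15.7% of all genes, and none passed the adjusted p, which 0.248% of all genes did. Ckb, with 1.53 in white fat and -0.47 in brown fat, differed by 2.0 ± 0.51 (interval 0.96 to 3.04, adjusted p = 0.0747). Alpl differed by 3.62 ± 1.38 (interval 0.77 to 6.48, adjusted p = 0.201) and Gamt by 2.49 ± 1.11 (interval 0.24 to 4.73, adjusted p = 0.262). The difference of Ckmt2 was 5.10 ± 2.25 (interval 0.47 to 9.74, adjusted p = 0.268). For Slc6a8 it was 1.50 ± 0.93, with an interval of -0.42 to 3.42 that includes 0 (adjusted p = 0.446). A difference between depots was therefore not shown for any single member after adjustment.

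In white fat the members' standard errors ran from 0.41 for Ckb to 1.88 for Ckmt2 in the authors' deposited table. Compared with genes within 0.5 log2 units of the same mean expression, the error of Ckb lay at percentile 78.7, where the median error was 0.32. Ckmt2 lay at percentile 97.4 (median 1.27), Alpl at 87.4 (median 0.81) and Slc6a8 at 79 (median 0.61). Ckmt1 and Gatm, at percentiles 25.5 and 37.2, had smaller errors than most genes of like expression. In brown fat Ckmt2 again lay high, at percentile 95, while Alpl lay at 32.2.

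**Figure D3:**
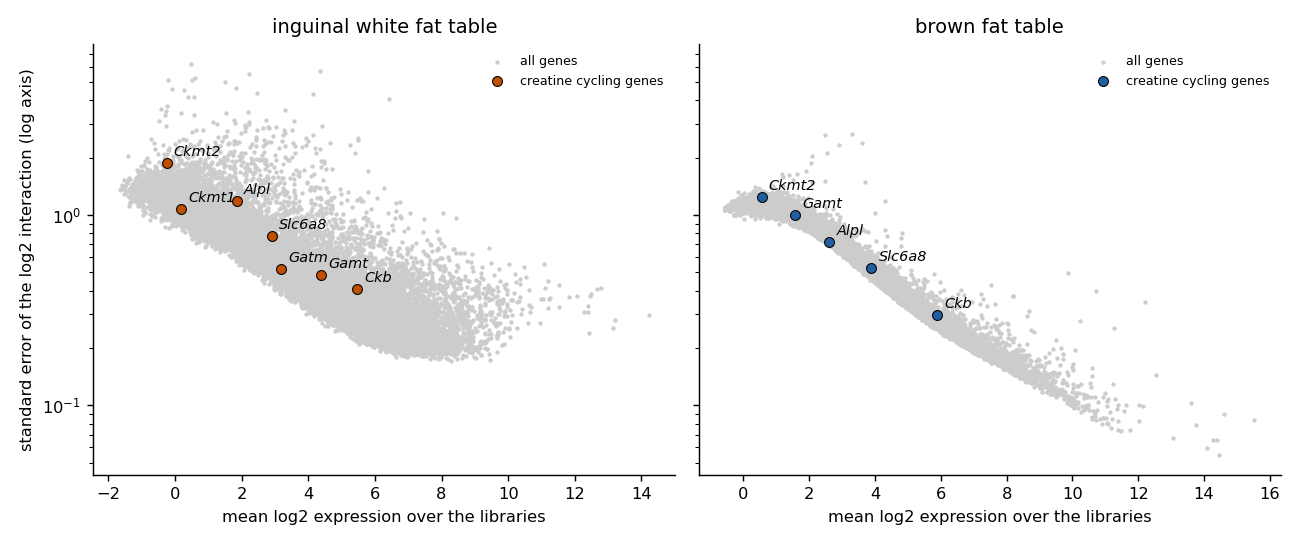
Standard error of the log2 interaction (log axis) against mean log2 expression over the libraries for every gene (grey) and for the creatine cycling genes (filled points), in white fat (left) and brown fat (right). In white fat Ckb has the smallest error of the 7, 0.41, and Ckmt2 the largest, 1.88.

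Genes around the pathway were read from lists that take no member. Adenylate kinases, which move phosphates among adenine nucleotides as creatine kinases do between ATP and creatine, were above 0 in white fat in 5 of 5 measured genes (median 1.38), with 1 called. That gene, Ak3, a kinase of the mitochondrial matrix, was higher by 1.15 ± 0.29 (adjusted p = 0.0427) in the authors' deposited white fat table. Its call too was lost relative to the table's median (1.02, adjusted p = 0.0548). Ak6 and Ak1 were at 1.38 ± 0.45 and 3.05 ± 1.03 (adjusted p = 0.0869 and 0.0941) in the authors' deposited white fat table. In brown fat 4 of the 5 were above 0 with a median of 0.30, and none was called. The carriers and channels that pass ATP and phosphate between mitochondria and cytosol were above 0 in 5 of 6 genes in white fat (median 0.62) and in 5 of 6 in brown fat (median 0.24), with none called in either. The lowest p in white fat belonged to Vdac1, the outer membrane channel, at 0.85 ± 0.30, Slc25a4, an ATP/ADP carrier, at 0.65 ± 0.24, and Vdac3 at 0.71 ± 0.30 (adjusted p = 0.104, 0.120 and 0.171) in the authors' deposited table.

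The genes that supply the substrates of creatine synthesis lay on both sides of 0. Of 10 genes of arginine and ornithine handling in white fat, 4 were above 0 and 6 below (median -0.36), and 1 was called. Above the median of the table were 3 of 10. Slc7a1, a plasma membrane importer of arginine, was lower by -1.71 ± 0.45 (adjusted p = 0.0472) in the authors' deposited white fat table and stood at 0.39 ± 0.70 in that for brown fat. Slc25a15, the mitochondrial ornithine carrier, was at 0.87 ± 0.37 and Slc7a2, another arginine transporter, at 1.81 ± 1.06 (adjusted p = 0.169 and 0.308) in the authors' deposited white fat table. Genes of glycine and methyl supply, of which GAMT needs the methyl donor, were above 0 in 5 of 10 (median 0.23), with none called. Slc6a9, a glycine transporter, was at 0.94 ± 0.74, and Nnmt, which methylates nicotinamide, at 0.48 ± 0.44 (adjusted p = 0.448 and 0.524) in the authors' deposited white fat table. In brown fat 3 of 8 and 3 of 10 genes of these lists were above 0 (medians -0.10 and -0.43), with none called.

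Beside Alpl, 4 of the 9 gene symbols searched for phosphate and pyrophosphate handling, which include both Ank and Ankh, were found in each table. Of these, 2 were above 0 in white fat (median 0.028) and 3 in brown fat (median 0.36), with none called. Alkaline phosphatases other than Alpl and the phosphatase Phospho1 were not listed in either table. Ank, a membrane protein of pyrophosphate and ATP release, was at 0.76 ± 0.29, Slc20a2, a phosphate importer, at 1.10 ± 0.44, and Enpp1, which makes pyrophosphate from ATP, at -2.13 ± 0.95 (adjusted p = 0.133, 0.143 and 0.187) in the authors' deposited white fat table.

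Other ATP-spending cycles known from thermogenic fat held no called gene in either depot. Over all genes, 4.75% were called in white fat and 0.013% in brown fat. At an unadjusted p of 0.05 from limma, 1 of 6 calcium cycling genes passed in each depot. Of the glycerolipid cycling genes, 5 of 8 passed in white fat and 3 of 8 in brown fat. The shares over all genes were 24.5% in white fat and 6.51% in brown fat. Calcium cycling genes were above 0 in 5 of 6 in white fat (median 1.81) and in 1 of 6 in brown fat (median -0.73). Atp2a2, the calcium pump SERCA2, was at 1.19 ± 0.35, Ryr1, a calcium release channel, at 2.41 ± 1.13, and Atp2a3 at -1.02 ± 0.50 (adjusted p = 0.0648, 0.206 and 0.226) in the authors' deposited white fat table. In that for brown fat they were at 0.093 ± 0.17, -2.70 ± 1.26 and -0.90 ± 0.81 (adjusted p = 0.956, 0.751 and 0.899). The part of muscle RNA in the calcium cycling list was not tested. Glycerolipid cycling genes were above 0 in 8 of 8 in both depots, with medians of 0.80 in white and 0.21 in brown fat. In brown fat 7 of 8 were also above the median of all genes. Gk, glycerol kinase, was at 3.16 ± 1.18, and the acyltransferases Dgat1 and Dgat2 were at 0.87 ± 0.33 and 1.08 ± 0.41 (adjusted p = 0.123, 0.128 and 0.131) in the authors' deposited white fat table.

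**Figure D4:**
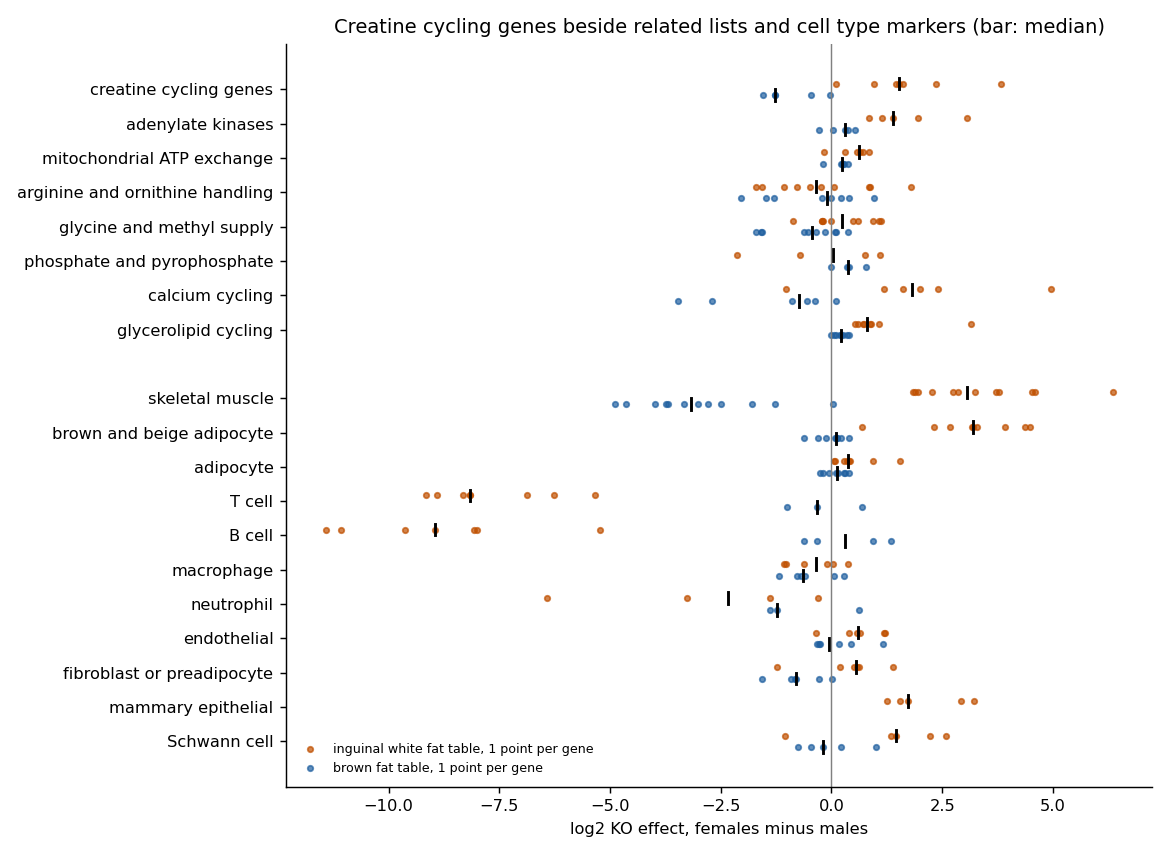
Log2 interaction of each gene of the creatine cycling group, of 7 related lists and of 11 cell type marker lists (1 point per gene; orange, white fat; blue, brown fat; black bars, medians). Creatine cycling, calcium cycling, skeletal muscle and fibroblast or preadipocyte genes lie mostly above 0 in white fat and mostly below 0 in brown fat. So does the Schwann cell list, with 4 of 5 genes above 0 in white fat and 3 of 5 below 0 in brown fat.

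Markers of other cell types moved in the same tables, and in bulk tissue fewer cells of a type and less RNA per cell cannot be told apart. Skeletal muscle expresses Ckm and Ckmt2. Its markers were above 0 in 12 of 12 in white fat (median 3.06), beside 55.9% of all genes. They were below 0 in 11 of 12 in brown fat (median -3.18), beside 49% of all genes, and none was called in either. Their errors were large, with medians of 2.61 and 1.67. At an unadjusted p of 0.05 from limma, 2 of 12 passed in white fat, beside 24.5% of all genes, and 3 of 12 in brown fat, beside 6.51%. The most abundant muscle markers in white fat were Myl1, at 1.88 ± 0.56, and Acta1, at 1.84 ± 1.39 (adjusted p = 0.0637 and 0.431) in the authors' deposited table. In brown fat they were Myl1, at 0.023 ± 0.21, and Myh4, at -3.74 ± 2.66 (adjusted p = 0.990 and 0.858) in the authors' deposited table. Myl1 stood apart from the list there, with a mean log2 expression of 7.05 against a median of 2.08 over the list. Ckm, at 3.69 in white and -3.27 ± 1.58 (adjusted p = 0.756) in brown fat in the authors' deposited tables, and Ckmt2, at 3.82 and -1.28, had the signs of that list. The part of muscle RNA in the values of Ckmt2 and of the other members was not tested.

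Thermogenic adipocytes, in which creatine cycling is best known, had 9 of 9 measured markers above 0 in white fat (median 3.20, with 1 called) and 6 of 9 in brown fat (median 0.11, none called). The errors in white fat were large, with a median of 2.35. There 1 of 9 had an unadjusted p from limma under 0.05, beside 24.5% of all genes. Ucp1 in white fat was at 3.29 ± 5.70 (interval -8.97 to 15.56, adjusted p = 0.749). The called gene was Kcnk3, a potassium channel, at 3.20 ± 0.81 (adjusted p = 0.0438), followed in abundance by Cox8b at 3.17 ± 1.70 (adjusted p = 0.266) in the authors' deposited white fat table. In brown fat the most abundant were Ucp1, at 0.089 ± 0.14, and Cidea, at 0.12 ± 0.074 (adjusted p = 0.948 and 0.826) in the authors' deposited table. General adipocyte markers were above 0 in 8 of 8 in white fat with a smaller median of 0.37, and in 5 of 8 in brown fat (median 0.12), with none called. Lpl was at 0.40 ± 0.41 and Fabp4 at 0.048 ± 0.38 in the authors' deposited white fat table. Of the 8 in white fat, 6 were above the median of all genes, and Fabp4 lay at -0.083 relative to it.

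Lymphocyte markers were far below 0 in white fat, in 8 of 8 T cell genes (median -8.17, 7 called) and 7 of 7 B cell genes (median -8.95, 3 called). Lck was at -8.17 ± 1.93 and Cd8a at -8.31 ± 1.98 (adjusted p = 0.0377 and 0.0378) in the authors' deposited white fat table. The B cell marker Ms4a1 was at -9.62 ± 2.55 and Cd79b at -8.07 ± 2.37 (adjusted p = 0.0487 and 0.0629) in the authors' deposited white fat table. In brown fat these lists had 3 and 4 measured genes, none called. Of cells in which Alpl is also found, endothelial markers had a median of 0.61 in white fat (5 of 6 above 0, none called) and -0.046 in brown fat, and neutrophil markers a median of -2.33 in white fat (4 of 4 measured below 0, none called) and -1.23 over 3 genes in brown fat. Macrophage, fibroblast, mammary and Schwann cell lists had medians of -0.36, 0.55, 1.74 and 1.46 in white fat (-0.63 and -0.81 for the first and second of these in brown fat, and -0.20 for the Schwann cell list), with 1 gene called below 0 in the Schwann cell list and none in the others. In the authors' deposited white fat table that gene, Mbp, a component of myelin, was at -1.05 ± 0.24 (adjusted p = 0.0362). The part of these cells in the members' values was not tested.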

How the data were processed

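RNA was purified from fat with a Zymo kit and its quality read on a Bioanalyzer, per the labels' protocols. The submitters' processing notes name featureCounts, limma and build GRCm39. The sources used here give no versions, aligner, annotation, strand setting or normalisation. Per the file headers, each comparison table holds limma's log2 fold change of the contrast, mean log2 expression, t-statistic (a score with no fixed range), p-value and adjusted p-value, all fitted by the authors over all genes of the table. Repeating the Benjamini-Hochberg adjustment on the deposited p-values returned the deposited adjusted values.

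A standard error was the log2 value over t. Degrees of freedom solved from t and p were 13.4 in white fat and 33.9 in brown fat and gave the 95% intervals. The depot difference took the root of the sum of both squared errors as its own, with degrees of freedom by Welch and Satterthwaite, two-sided and adjusted over the 14502 shared genes. In all, 48 columns of library values, counted over the whole deposit and not as libraries, match no label and were not used. The planned limma fit of KO against WT within each sex was therefore not made, and depth is unknown.

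The members, 8 pathway lists and 11 marker lists were chosen with earlier results of these data known. Genes were named as members, as up to 3 genes per pathway list with the smallest white fat p, or as the 2 most abundant genes of a marker list, given for some lists. A gene that this rule names is not reported here. Alternatives were a threshold of 0.10, genes with mean expression of at least 10 on the linear scale, protein-coding genes, and centring on the median. Promoter windows are RefSeq's in GRCm38.p6, and their coordinates are not those of the tables. The intervals, the degrees of freedom and the depot difference were tested on simulated data. Those data were drawn independently for each depot, so they do not check that the real tables are independent. The other steps were not tested on simulated data. Scripts ran on Python 3.11.15 with scipy 1.17.1, pandas 2.3.3 and numpy 2.4.6, and figures were drawn with matplotlib 3.10.9.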

Additional observations from a re-analysis of the deposited data

Results flagged for a closer look

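The effect of the knockout differed between females and males, by limma's test of the interaction in the authors' deposited white fat table, for 1 creatine cycling gene, Ckb (1.53, adjusted p = 0.0496). The same test was passed by 7 other genes named in the text, with values from the same table. These were Ak3 (1.15), Kcnk3 (3.20), Slc7a1 (-1.71), Lck (-8.17), Cd8a (-8.31), Ms4a1 (-9.62) and Mbp (-1.05). The calls of Ckb and Ak3 were lost relative to the median of the table (adjusted p = 0.0602 and 0.0548). No member passed the test of the difference between depots.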

How the results depend on the processing

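The thresholds, filters and centring were run on both tables, and only the expression filter and centring on the depot difference. Under these, 44 of 46 values of members kept their direction and their side of the threshold. This count says little about direction, since the thresholds and filters leave the log2 values unchanged and only centring could turn one. Ckb in white fat was also the only member value called as deposited. The exceptions came from centring each interaction on the median of its table in white fat: Ckb was no longer called (1.40, adjusted p = 0.0602), which left 0 members called, and Gatm turned to -0.024. Ckb was called under the other alternatives, with adjusted p between 0.0471 and 0.0496. Among other named genes, centring turned Fabp4 to -0.083 and ended the call of Ak3, and the threshold of 0.10 added 5 calls. A threshold of 0.10 gave 2027 called genes in white fat, against 795. Centring gave 58 genes for the depot difference (10 above 0 and 48 below), against 36 (13 and 23). The filter on mean expression kept 2 of 7 members in white fat, 2 of 5 in brown fat and 1 of 5 in the depot difference. For KO against WT within each sex, the pseudocount, the filter for library values and leaving out each replicate were not run, since they need library values. No paired analysis was possible because the columns of library values carry no replicate number. Depth per library is unknown, and standard errors above 1 were found for Ckmt1, Ckmt2 and Alpl in white fat and for Ckmt2 and Gamt in brown fat.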
